A study of Homo sapiens with 8 samples.

Results

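The ribosome biogenesis genes are 40 genes whose products build ribosomes in the nucleolus. They were chosen by name with earlier results of these data known, so their shares are described and not tested as a set. All 40 were found among the 26364 genes of the table, 39 by their symbol and UTP4 by its older symbol CIRH1A. All 40 passed the filter on low counts and are among the 14201 genes tested. By role they comprised 3 core proteins of the box C/D small nucleolar ribonucleoprotein (snoRNP), 1 of the box H/ACA snoRNP, 3 subunits of RNA polymerase I, 5 nucleolar scaffold or rRNA transcription proteins, 13 proteins of the small subunit processome, 3 of the PeBoW complex and 12 other proteins of large subunit assembly.

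Ribosomes are assembled from ribosomal RNA, which RNA polymerase I transcribes as a long precursor, and from ribosomal proteins imported into the nucleolus. SnoRNPs modify the precursor, the small subunit processome folds and cleaves it into the small subunit, and PeBoW and other factors mature the large subunit. Genes of this pathway are widely known to be expressed more in growing than in resting cells, and many are known targets of the transcription factor MYC. Estrogen is known to stimulate the growth of endometrial epithelium.

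RNA was sequenced from Ishikawa cells, an estrogen-responsive line established from a human adenocarcinoma of the endometrium. Cells of every group had grown for 4 or more days without phenol red and with serum stripped of steroids by charcoal, so the vehicle group also lacked added hormone. The 4 groups received DMSO (the vehicle), dexamethasone at 100 nM (Dex, a synthetic glucocorticoid), 17-beta-estradiol at 10 nM (E2, an estrogen), or both hormones (Dex_E2), with 2 libraries in each group and 8 in all. Each sample is labelled with 8 hr of treatment but a common protocol text states 1 hr, and the sources used here do not settle which applies. Both columns of the combination carry the number 1, so 1 of its libraries is called unnumbered here. Only this tumour line was used. Separate cultures for the 2 libraries of a group are not stated in the labels, so p-values reflect the spread between libraries, part of which may be technical.

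Libraries held 17846211 to 22487333 counts assigned to genes, and the members took 0.531% to 0.679% of them. Levels are given as CPM, the counts of a gene scaled to the size of its library. The epithelial marker list was found whole (8 of 8 genes, KRT8 highest at 1943 CPM), with summed levels of 3433 to 3904 CPM in DMSO, 4411 to 4803 in Dex, 3377 to 3634 in E2 and 3785 to 4039 in Dex_E2. Summed leukocyte markers (6 genes, CD3E at 0) lay between 1.21 and 3.12 CPM and endothelial markers (5 genes) between 7.79 and 11.3 CPM. Summed fibroblast markers (6 genes) lay between 137 and 196 CPM. Single genes made up much of the last 2 sums, with ESAM up to 7.78 CPM and COL1A1 up to 181 CPM. Both hormones acted on known targets: PGR, the progesterone receptor, lay between 31.8 and 41.0 CPM in the 4 libraries with estradiol, and TSC22D3, a glucocorticoid-induced gene, between 63.5 and 150 CPM in the 4 with dexamethasone. Both Dex libraries stood apart in some respects. PGR was at 8.91 CPM in Dex replicate 1 and at 2.47 to 4.09 CPM in the other libraries without estradiol, and RNA45S5, a ribosomal RNA gene, held 1.42% of all counts in Dex replicate 2 against 2.79% to 4.03% elsewhere.

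The promoters of the members held many E-boxes, the DNA element CACGTG that MYC and related basic helix-loop-helix factors are known to bind. RefSeq promoter sequences (build GRCh38.p14, from 250 bases before to 50 after each annotated start) were matched for 34 of the 40 members. RRP12, NOLC1, NOP58, RRP1B, RRS1 and BOP1 were not matched. The stretch from 60 bases before to 20 after the start is printed for 5 members with an E-box and 3 without one, because these include 5 of the 6 members that rose with estradiol and show how near the element lies to the start. E-boxes are in capitals, and each sequence reads 5′ to 3′ on the strand of the gene.
UTP20 (chr12:101280045-101280124, plus strand): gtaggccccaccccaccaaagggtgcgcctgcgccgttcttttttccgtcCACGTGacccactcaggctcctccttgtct
RRP9 (chr3:51941885-51941964, minus strand): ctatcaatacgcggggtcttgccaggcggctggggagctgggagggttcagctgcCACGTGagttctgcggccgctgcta
NAT10 (chr11:34105569-34105648, plus strand): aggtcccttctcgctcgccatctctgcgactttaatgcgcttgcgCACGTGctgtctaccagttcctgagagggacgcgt
MRTO4 (chr1:19251745-19251824, plus strand): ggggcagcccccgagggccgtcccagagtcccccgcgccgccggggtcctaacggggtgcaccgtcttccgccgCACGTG
GNL3 (chr3:52685972-52686051, plus strand): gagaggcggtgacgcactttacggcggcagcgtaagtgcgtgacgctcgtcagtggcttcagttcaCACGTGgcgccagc
UTP15 (chr5:73565683-73565762, plus strand): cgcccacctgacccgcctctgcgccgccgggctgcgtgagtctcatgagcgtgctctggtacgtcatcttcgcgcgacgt
HEATR1 (chr1:236604497-236604576, minus strand): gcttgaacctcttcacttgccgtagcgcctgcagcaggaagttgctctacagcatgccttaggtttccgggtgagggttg
NOP16 (chr5:176388579-176388658, minus strand): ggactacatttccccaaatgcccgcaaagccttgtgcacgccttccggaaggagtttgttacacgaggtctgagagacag

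CACGTG was present in the 300-base window of 16 of the 34 matched members (47.1%), against 1302 of 10497 tested genes with a window (12.4%). Within 40 bases of the start it was present in 14 of 34 members (41.2%), against 429 of the tested genes (4.09%). Its first base was at position -5 in RRP9, -10 in UTP20 and 15 in MRTO4, where 1 is the first transcribed base. The ETS-type element CCGGAAG was present in 13 of 34 members (38.2%) and 21.1% of tested genes, and the GC box GGGCGG in 73.5% and 76.9%. The hexamers CACGCG and CATGTG, related to the E-box, were present in 35.3% and 5.88% of matched members, against 22.6% and 9.82% of tested genes. The YY1-type element CCATNTT was present in 23.5% and 19.8%. TATAAA was present in 1 member, UTP20 (2.94%, against 8.27% of tested genes). AGGTCA, the core hexamer of the estrogen response element, was found in 3 of 34 members (8.82%, against 13.8% of tested genes), and AGAACA, a core hexamer of the glucocorticoid response element, in 7 of 34 (20.6%, against 12.8%). These matches describe letters in a short window, on both strands, and say nothing about binding.

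**Figure D1:**
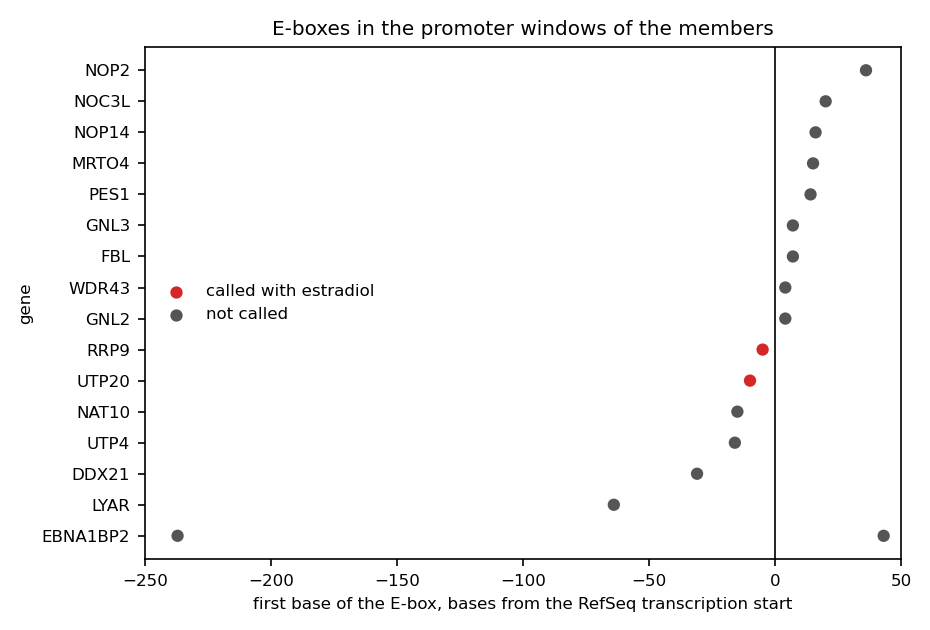
Position of each E-box (first base of CACGTG, in bases from the RefSeq transcription start, horizontal axis) in the promoter windows of the 16 members that hold one, with the members called higher with estradiol in red. In 14 of the 16 an E-box lies within 40 bases of the start, and the red points are RRP9 and UTP20.

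Before treatment effects, the levels themselves differed widely between members. Per kilobase of exon, averaged over the 8 libraries, nucleolin (NCL, a nucleolar RNA-binding scaffold) was at 362 CPM, nucleophosmin (NPM1, a nucleolar chaperone) at 262 and fibrillarin (FBL, the methyltransferase of box C/D snoRNPs) at 184. PPAN, a large subunit assembly factor, was lowest at 2.92 CPM per kilobase, and BOP1, a PeBoW subunit, next at 3.81. Exons of PPAN overlap PPAN-P2RY11 on the same strand, so its counts are uncertain where reads fit both genes. In NCL the levels were 1719.5 and 1389 CPM in DMSO, 1418 and 1281 in Dex, 1592 and 1592 in E2, and 1307 and 1378 in Dex_E2. DMSO replicate 1 was the highest library for NCL and Dex replicate 2 the lowest. PPAN lay at 5.35 and 4.91 CPM in DMSO, 4.62 and 3.65 in Dex, 5.12 and 7.29 in E2, and 4.75 and 4.89 in Dex_E2. These PPAN values rest on only 65 to 165 counts per library, and 1 E2 library lay within the DMSO range and the other above it. In bulk RNA, fewer cells expressing a gene and less RNA per cell cannot be told apart.

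With estradiol, averaged over the cells without and with dexamethasone, 6 of the 40 ribosome biogenesis genes rose and 0 fell. They were RRP12, UTP20, UTP15, RRP9 and HEATR1 of the small subunit processome and NOP16 of large subunit assembly, at 1.22 to 1.33 fold. The test was edgeR's quasi-likelihood test with Benjamini-Hochberg adjustment over all 14201 genes and a threshold of 0.05, and by this rule 2.54% of all tested genes rose. The fitted change was above 0 for 38 of 40 members, against 49.1% of all tested genes, with a median log2 fold change of 0.19 against 0.00. At an unadjusted p under 0.05, 25 members were higher and 0 lower, against 9.65% of tested genes higher. The number of calls depended on single libraries: it fell with most single-library omissions and rose without Dex replicate 1. Calls among all tested genes also moved with these omissions. With any 1 library left out, the median of the members stayed between 0.16 and 0.24.

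**Figure D2:**
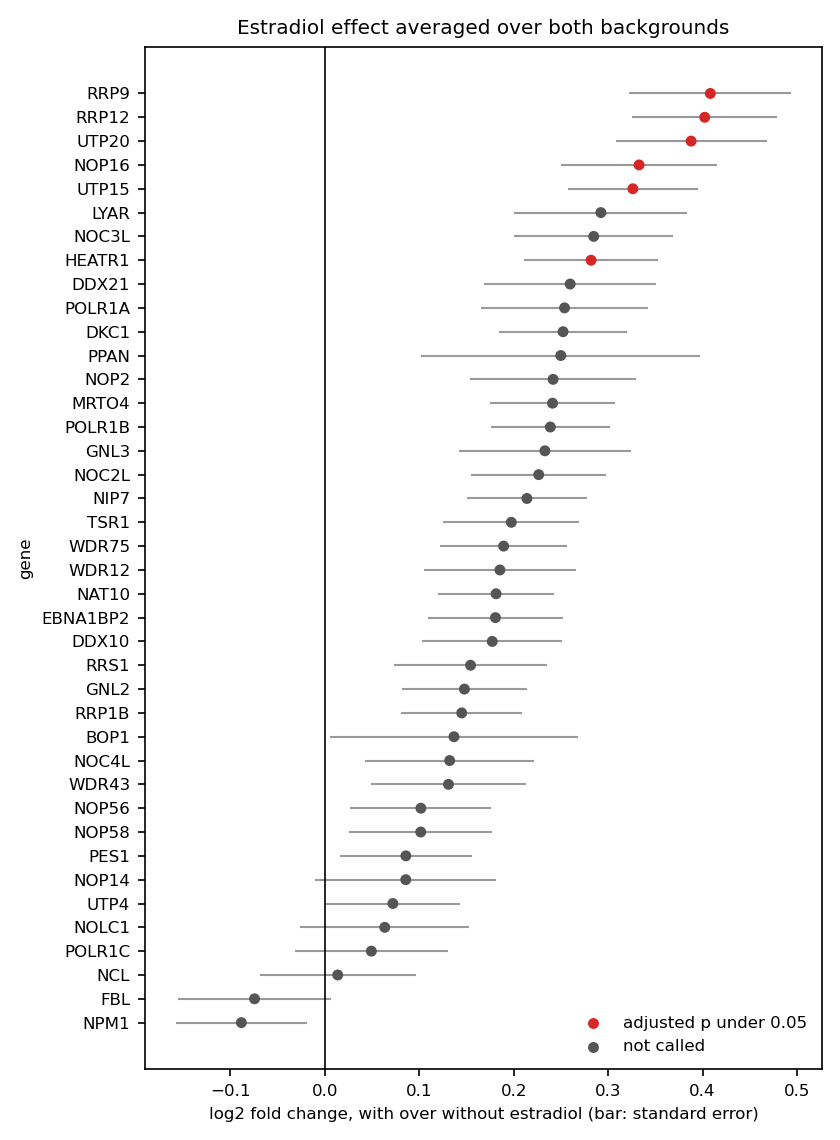
Fitted log2 fold change of each of the 40 members, libraries with over libraries without estradiol (points, with the standard error as bars), ordered by size and with called members in red. RRP9, at 0.41, is at the top, and FBL and NPM1 are the members below 0.

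The small subunit processome held 5 of the 6 calls. RRP12, a HEAT-repeat protein needed for maturation of pre-ribosomes, was at 98.5 and 102 CPM in DMSO, 101 and 81.9 in Dex, 134 and 143 in E2, and 116 and 116 in Dex_E2. Every library with estradiol exceeded every library without it, and the E2 libraries also exceeded those of the combination. The log2 fold change of RRP12 was 0.40 ± 0.08 (SE of the fit; adjusted p = 0.0115, edgeR), and the call was lost only without E2 replicate 2 (adjusted p = 0.0597, edgeR).

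UTP20, a large scaffold protein of the processome, lay at 96.3 and 88.3 CPM in DMSO, 90.3 and 76.1 in Dex, 134 and 117 in E2, and 101 and 108 in Dex_E2. All libraries with estradiol were again above all without it, with E2 alone highest. Its log2 fold change was 0.39 ± 0.08 (adjusted p = 0.0172, edgeR), with the call lost without Dex replicate 2, E2 replicate 1 or the unnumbered combination library (adjusted p up to 0.0812, edgeR).

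UTP15, a subunit of the processome's UtpA subcomplex, was at 40.1 and 37.5 CPM in DMSO, 39.1 and 36.0 in Dex, 51.7 and 49.9 in E2, and 46.1 and 44.2 in Dex_E2. The 3 levels were separate here too: without estradiol lowest, the combination between, E2 alone highest. The log2 fold change was 0.33 ± 0.07 (adjusted p = 0.0194, edgeR), and 6 of the 8 single-library omissions ended the call (adjusted p up to 0.107).

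RRP9, a protein specific to the U3 snoRNP of the processome, had 26.3 and 27.3 CPM in DMSO, 28.7 and 25.3 in Dex, 33.8 and 41.4 in E2, and 34.9 and 32.8 in Dex_E2. Here E2 and the combination overlapped, and both lay above all libraries without estradiol. RRP9 had the largest fitted change of the members, 0.41 ± 0.09 (adjusted p = 0.0189, edgeR), and 4 of the 8 omissions ended the call (adjusted p up to 0.0918).

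HEATR1, another UtpA subunit, was at 105 and 100.2 CPM in DMSO, 94.7 and 87.6 in Dex, 130.1 and 116 in E2, and 107 and 118 in Dex_E2. Both Dex libraries lay below both DMSO libraries, and E2 overlapped the combination above them. Its log2 fold change was 0.28 ± 0.07 (adjusted p = 0.0426, edgeR), and 7 of the 8 omissions ended the call (adjusted p up to 0.209).

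NOP16, a nucleolar protein of the pre-large subunit, had 36.7 and 36.3 CPM in DMSO, 37.9 and 34.6 in Dex, 44.2 and 52.3 in E2, and 46.5 and 40.5 in Dex_E2. Libraries with estradiol did not overlap those without, and E2 overlapped the combination. The log2 fold change of 0.33 ± 0.08 passed the threshold (adjusted p = 0.0398, edgeR), but not with upper quartile scaling (adjusted p = 0.0612) or in 7 of the 8 omissions (adjusted p up to 0.184). Exons of RRP12, HEATR1 and NOP16 overlap a gene on the opposite strand (AL355490.2, LGALS8 and HIGD2A). The library kit was stranded, but whether the counting used the strand is not given in the sources used here. Without it, reads of both genes cannot be told apart there. An exon of HEATR1 also overlaps AL359921.1 on the same strand, where the strand does not separate them.

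**Figure D3:**
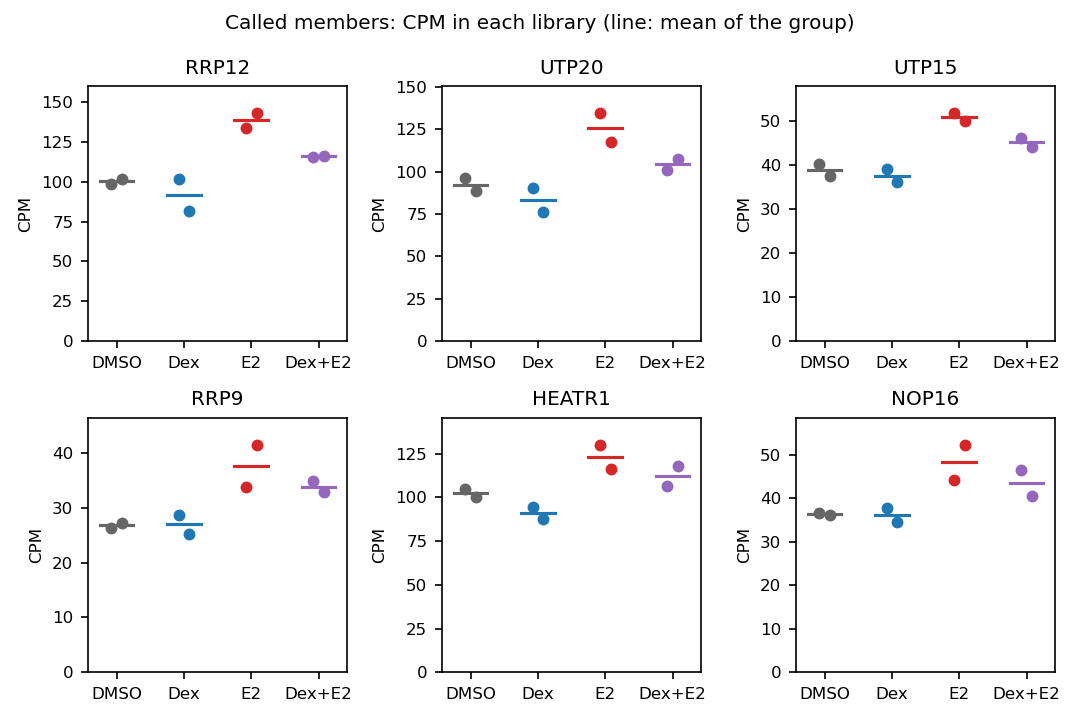
CPM (vertical axis, from 0) of the 6 members called higher with estradiol, in each library (points) with the group mean (line), by treatment (horizontal axis). In all 6 panels the 4 libraries with estradiol lie above the 4 without, and the E2 mean is above the Dex_E2 mean.

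The next members by p-value missed the threshold. POLR1B, a catalytic subunit of RNA polymerase I, was at 79.2 and 78.0 CPM in DMSO, 76.8 and 73.2 in Dex, 99.0 and 93.3 in E2, and 84.1 and 86.8 in Dex_E2, a log2 difference of 0.24 ± 0.06 (adjusted p = 0.0517, edgeR). Its 4 libraries with estradiol did not overlap those without. DKC1, the pseudouridine synthase of box H/ACA snoRNPs, had 141 and 131 CPM in DMSO, 135 and 122 in Dex, 164 and 177 in E2, and 141 and 149 in Dex_E2 (0.25 ± 0.07, adjusted p = 0.0555, edgeR). For DKC1 only the E2 libraries stood clear of the rest. MRTO4, a factor that holds the place of a stalk protein on the immature large subunit, was at 80.0 and 76.1 CPM in DMSO, 78.0 and 76.3 in Dex, 96.3 and 107 in E2, and 82.0 and 83.1 in Dex_E2 (0.24 ± 0.07, adjusted p = 0.0595, edgeR). The combination libraries of MRTO4 were barely above DMSO, far below E2 alone. NOC3L, a partner of NOC2L in large subunit export, had 70.9 and 59.6 CPM in DMSO, 59.5 and 50.6 in Dex, 81.9 and 78.7 in E2, and 62.7 and 70.1 in Dex_E2 (0.28 ± 0.08, adjusted p = 0.0823, edgeR). Its combination libraries lay within the DMSO range. DESeq2 called these 4 genes as well, 10 members in all against 2.87% of tested genes, whereas limma-voom called 6, against 2.58% of tested genes.

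By role, the fitted estradiol change was above 0 for 13 of 13 small subunit processome members (median 0.19), 12 of 12 large subunit members (0.23), 3 of 3 RNA polymerase I subunits (0.24) and 3 of 3 PeBoW members (0.14). Among the scaffold and transcription proteins it was above 0 in 4 of 5 (median 0.06), and among the box C/D proteins in 2 of 3 (0.10). The 3 members that take up the most reads per kilobase had small fitted values. NCL was at 0.01 ± 0.08 (below 0 with upper quartile scaling), FBL at -0.07 ± 0.08 and NPM1 at -0.09 ± 0.07, none of them called (adjusted p = 0.947, 0.657 and 0.523, edgeR). NOLC1 and DDX21, next by reads per kilobase, were at 0.06 ± 0.09 and 0.26 ± 0.09 and were not called either. FBL lay at 191 and 215 CPM in E2 against 197 and 237 in DMSO, and NPM1 at 631 and 683 CPM in E2 against 720.1 and 706 in DMSO. For NPM1 both E2 libraries were below both DMSO libraries. The annotation names 45 pseudogenes after NPM1, so its counts are uncertain where reads fit these copies.

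Introns of 9 members host snoRNA genes (22.5%, against 1.71% of 12686 tested protein-coding genes), among them NOP56, NOP58, NCL and GNL3. The median fitted estradiol change was 0.13 in these 9 hosts and 0.19 in the other 31 members. Members with a CACGTG element in the promoter window and the 18 matched members without one had the same median, 0.21 and 0.21, with ranges of -0.07 to 0.41 and -0.09 to 0.33.

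Estradiol alone against DMSO gave 0 calls among the members with edgeR (smallest adjusted p = 0.0632, RRP12), where 1.8% of tested genes were called, 169 higher and 87 lower. At an unadjusted p under 0.05, 19 members were higher and 0 lower, against 6.11% of tested genes higher. Both E2 libraries exceeded both DMSO libraries in 32 of 40 members, against 18.3% of tested genes. The reverse held for 1, NPM1, and was not counted over all tested genes. The median log2 fold change was 0.24, and 38 members were fitted above 0 (48.7% of tested genes). The largest were RRP9 at 0.49 ± 0.12, RRP12 at 0.47 ± 0.11, UTP20 at 0.45 ± 0.11 and GNL3 at 0.43 ± 0.13. DESeq2 called 4 members (RRP12, UTP20, RRP9 and MRTO4), among 339 of all tested genes (213 higher). By limma-voom 0 members and 251 of all tested genes were called. Dex replicates 1 and 2 are not in this comparison but add to the pooled estimate of spread on which its calls rest. With either left out, the median of the members was 0.235. Without the filter on low counts 3 members were called, RRP12, UTP20 and RRP9, among 442 genes in all (261 higher).

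Estradiol added to dexamethasone (Dex_E2 against Dex), a comparison that shares no library with the one before, also gave 0 calls with edgeR (smallest adjusted p = 0.148, RRP12, with 0 by DESeq2 and by limma-voom), where 2.67% of tested genes were called. Unadjusted, 8 members were higher and 0 lower (7.27% of tested genes higher): RRP12, HEATR1, UTP20, UTP15, RRP9, POLR1A, NOC3L and NOP16. The groups did not overlap, with the combination higher, in 24 of 40 members, a share to be read against 24.8% of tested genes. It was 34 members without Dex replicate 1 (40.4% of tested genes) and 28 without Dex replicate 2 (37.3%). The median log2 fold change was 0.15 (31 members above 0, against 49.4% of tested genes), and it was 0.21 without Dex replicate 1 and 0.08 without Dex replicate 2. Of the 40 members, 31 were fitted above 0 in both comparisons, and 35 had the smaller fitted estradiol change in the presence of dexamethasone. POLR1A, the largest subunit of RNA polymerase I, was among the 5 exceptions, with 0.18 ± 0.12 without and 0.32 ± 0.12 with dexamethasone.

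**Figure D4:**
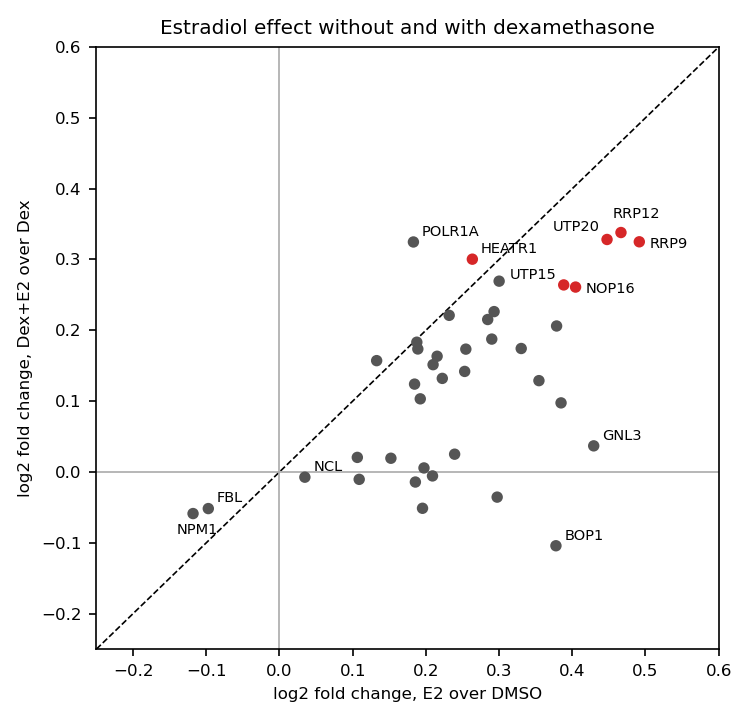
Log2 fold change with estradiol without dexamethasone (E2 over DMSO, horizontal axis) and with it (Dex_E2 over Dex, vertical axis) for the 40 members, with called members in red and the line of equal change dashed. Of the 40 points 35 lie on the side of the smaller change with dexamethasone, and 31 are above 0 on both axes.

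Whether the estradiol change itself differed with dexamethasone was tested as an interaction. By edgeR 0 members were called (smallest adjusted p = 0.945) and 0 had an unadjusted p under 0.05, and DESeq2 and limma-voom also called 0, while of all tested genes edgeR called 0.0211% and 3.43% were lower unadjusted. Fitted interactions were below 0 in 35 members (51.6% of tested genes), with a median of -0.11. That median was -0.04 without Dex replicate 1 and -0.19 without Dex replicate 2. The smallest p-values belonged to MRTO4 (-0.29 ± 0.13), GNL3 (-0.39 ± 0.18), WDR43 (-0.33 ± 0.16) and BOP1 (-0.48 ± 0.26). GNL3, the GTP-binding protein nucleostemin, was at 92.5 and 74.3 CPM in DMSO, 96.5 and 79.1 in Dex, 109 and 116 in E2, and 86.5 and 93.7 in Dex_E2. WDR43, a UtpA subunit, had 104 and 83.3 CPM in DMSO, 102 and 93.8 in Dex, 119 and 112 in E2, and 92.7 and 98.4 in Dex_E2. BOP1 had 7.40 and 9.19 CPM in DMSO, 9.68 and 6.85 in Dex, 10.2 and 11.3 in E2, and 8.08 and 7.36 in Dex_E2, on 122 to 256 counts per library. In these 3 genes the E2 libraries were above all others and the combination lay among the libraries without estradiol.

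Dexamethasone alone changed 0 members (smallest adjusted p = 0.556, edgeR), and 0 had an unadjusted p under 0.05, against 0.965% of tested genes called and 3.39% lower unadjusted. Both Dex libraries lay below both DMSO libraries in 9 of 40 members, against 17.7% of tested genes. They lay above them in 0 members, a direction that was not counted over all tested genes. DESeq2 and limma-voom also called 0. The fitted change was below 0 in 33 members (49.1% of tested genes), with a median of -0.07. Within the group, Dex replicate 2 was the lowest library for 30 of 40 members (21.5% of tested genes) and below both DMSO libraries in 31 (35.8% of tested genes), whereas Dex replicate 1 was below both in 10 (29.3%). Without Dex replicate 2 the median was -0.01, and without Dex replicate 1 it was -0.16. Dex replicate 2 is also the library with the lowest RNA45S5 share, given above, and with the highest share of counts in ribosomal protein genes, 7.03% against 5.23% to 6.54% elsewhere, and both Dex libraries had the highest epithelial marker sums. The part of these in the members' values was not tested.

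Dexamethasone added to estradiol (Dex_E2 against E2) gave 0 calls among the members (smallest adjusted p = 0.468, edgeR, with 0 by DESeq2 and by limma-voom), where 0.275% of tested genes were called. Unadjusted, 12 members were lower and 0 higher (3.31% of tested genes lower). The E2 libraries exceeded both combination libraries in 31 of 40 members, against 19.6% of tested genes, and 38 were fitted below 0 (49.4% of tested genes), with a median of -0.18. MRTO4 had the smallest p-value, at -0.30 ± 0.09. This comparison and that of E2 against DMSO share the E2 libraries. Both E2 libraries exceeded all 6 other libraries in 26 of 40 members (6.31% of tested genes).

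Averaged over both backgrounds, dexamethasone changed 0 members by edgeR (smallest adjusted p = 0.290, with 0 by DESeq2 and by limma-voom), against 1.07% of tested genes called. Unadjusted, 11 members were lower and 0 higher (4.15% of tested genes lower), and 39 of 40 were fitted below 0 (50% of tested genes), FBL being the exception. The median was -0.13, and it was -0.18 without Dex replicate 1, -0.10 without Dex replicate 2 and -0.09 without DMSO replicate 1. The smallest p-values were those of NOC3L (-0.26 ± 0.08), LYAR (-0.26 ± 0.09), NCL (-0.23 ± 0.08) and UTP20 (-0.21 ± 0.08). LYAR, a nucleolar zinc-finger protein, was at 51.3 and 42.9 CPM in DMSO, 46.4 and 37.0 in Dex, 58.1 and 64.2 in E2, and 48.4 and 47.9 in Dex_E2. Its Dex replicate 2 was the lowest library, and its combination libraries lay within the DMSO range.

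The combination against DMSO gave 0 calls among the members (smallest adjusted p = 0.291, RRP9, edgeR, with 0 by DESeq2 and by limma-voom), where 2.19% of tested genes were called. The median log2 fold change was 0.05, with 28 members above 0 (49.7% of tested genes). Unadjusted, 2 members were higher (5.53% of tested genes), RRP9 at 0.34 ± 0.12 and UTP15 at 0.22 ± 0.10. Both combination libraries exceeded both DMSO libraries in 13 members, against 19.8% of tested genes. They fell below them in NCL, NPM1 and PPAN, a direction that was not counted over all tested genes. All 4 libraries with estradiol exceeded all 4 without it in 13 members, against 5.57% of tested genes: POLR1B, UTP15, WDR75, HEATR1, UTP20, RRP9, NAT10, RRP12, WDR12, NOP16, NOC2L, NIP7 and MRTO4. WDR75 is a further UtpA subunit, NAT10 acetylates rRNA, WDR12 is a PeBoW subunit, and NOC2L and NIP7 act in large subunit assembly.

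**Figure D5:**
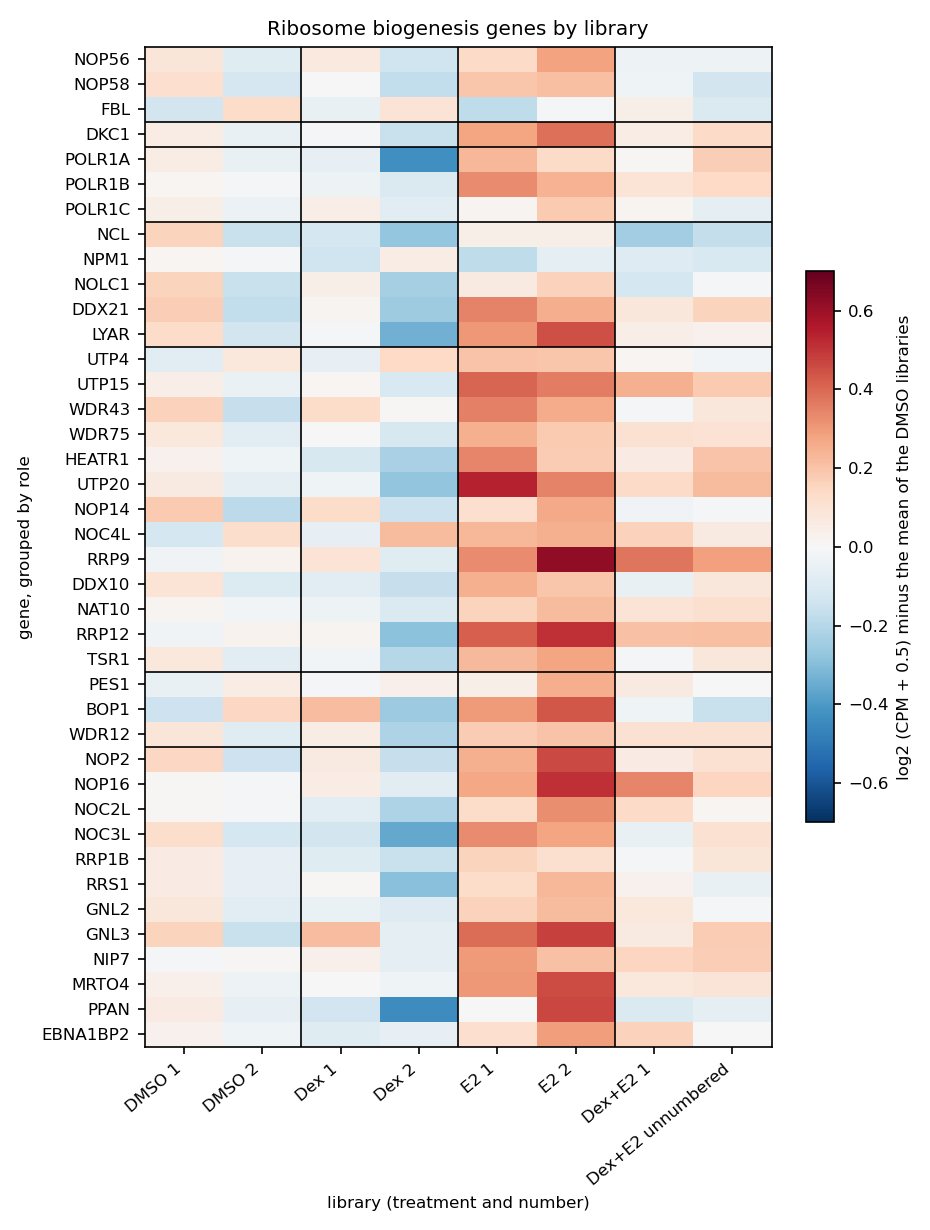
Level of each member (vertical axis, grouped by role) in each library (horizontal axis), as log2 (CPM + 0.5) minus the mean of the DMSO libraries, red higher and blue lower. The median over members is 0.23 and 0.26 in the E2 libraries, 0.05 and 0.08 in the Dex_E2 libraries, and -0.01 and -0.15 in the Dex libraries.

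The library view restates the same scaled counts and is not independent of the fits. The median shift of the members from the DMSO mean, on the log2 (CPM + 0.5) scale, was 0.05 and -0.05 in the DMSO libraries themselves. E2 replicates 1 and 2 were the highest library for 13 and 24 members, 37 of 40 in all, against 16.1% and 11.4% of tested genes. Levels were above both DMSO libraries in 32 members in E2 replicate 1 (34.5% of tested genes) and 37 in E2 replicate 2 (30.5%). In the combination libraries this held for 16 and 18 members (32.2% and 31.5% of tested genes). Replicates of a group also differed across the members: replicate 2 was lower than replicate 1 in 32 of 40 members in DMSO and 34 in Dex, but in 14 in E2, against 49.3% to 50.8% of tested genes.

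Other genes of the pathway were read from lists of the remaining factors. With estradiol averaged over both backgrounds, 7 of 38 other small subunit genes rose and 0 fell, and 36 were fitted above 0 (median 0.14). As above, 2.54% of all tested genes rose and 49.1% were fitted above 0, and 3.26% fell. PNO1, a late small subunit factor, was at 67.1 and 65.9 CPM in DMSO, 56.3 and 53.0 in Dex, 80.6 and 86.6 in E2, and 75.2 and 69.4 in Dex_E2 (0.37 ± 0.07, adjusted p = 0.00856, edgeR). WDR3 and PWP2, of the UtpB subcomplex, rose by 0.34 ± 0.07 and 0.35 ± 0.08. Of 48 other large subunit genes 6 rose and 0 fell, read against the same shares, with 40 above 0 (median 0.15), among them URB2 at 0.40 ± 0.09, RPF2 at 0.30 ± 0.07 and URB1 at 0.27 ± 0.06. Of 12 other RNA polymerase I genes 0 were called by edgeR, with 2 at an unadjusted p under 0.05 (16.7%, against 20.1% of tested genes; median 0.07). Its factors UBTF and TAF1C were at -0.15 ± 0.07 and 0.18 ± 0.08, and the subunit POLR1F at 0.13 ± 0.07. Of 12 other snoRNP genes 0 were called by edgeR, with 1 at an unadjusted p under 0.05 (8.33%; median 0.04), and the assembly factors NAF1, SHQ1 and ZNHIT6 were at 0.18 ± 0.07, 0.14 ± 0.07 and 0.19 ± 0.09.

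MYC itself was not called. Its mRNA was at 109 and 107 CPM in DMSO, 105 and 117 in Dex, 95.2 and 109 in E2, and 93.0 and 98.3 in Dex_E2, a log2 difference with estradiol of -0.15 ± 0.07 (adjusted p = 0.272, edgeR). Of 11 genes of the MYC network 0 rose and 1 fell, against 3.26% of tested genes. It was MXD4, a partner of MAX that opposes MYC, just inside the threshold at -0.34 ± 0.09 (adjusted p = 0.049, edgeR). MXD3 and MYCL were at -0.34 ± 0.12 and -0.27 ± 0.11 and were not called. RNA45S5, the precursor of the rRNA, was at 35290 and 41130 CPM in DMSO, 31989 and 14364 in Dex, 31431 and 27620 in E2, and 30709 and 39746 in Dex_E2. It was called in 0 of the 8 comparisons, at 0.12 ± 0.20 for estradiol averaged over both backgrounds. The 2 backgrounds differed in sign, -0.37 ± 0.29 for E2 against DMSO and 0.60 ± 0.29 for Dex_E2 against Dex. Dex replicate 2, the lowest library, enters only the latter. The kit makes libraries of mRNA, so these reads are what remains of rRNA.

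Cytosolic ribosomal protein genes, whose counts are uncertain where reads fit their many pseudogenes, had fitted values mostly of the opposite sign. Of 74 tested, 0 were called with estradiol by edgeR and 5 had an unadjusted p under 0.05 (6.76%, against 20.1% of tested genes), and 65 were fitted below 0 (50.9% of tested genes), with a median of -0.06. The smallest p-values were those of RPL39 (1.13 ± 0.31), RPL13A (-0.23 ± 0.07) and RPS2 (-0.40 ± 0.13). With dexamethasone averaged over both backgrounds 67 were fitted above 0 (50% of tested genes), with a median of 0.12. Of the 74, 1 was called higher, against 142 of 14201 tested genes.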

How the data were processed

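RNA was sequenced from 8 libraries of Ishikawa cells (4 treatments). The authors deposited raw counts per gene, which were used for all tests, and a table of normalised values, not used here. HISAT2 2.0.4, featureCounts 1.5.1 (Subread) and DESeq2 1.14.1 are named with build hg19 in the submitters' processing notes. Which annotation was counted, and with which strand setting, is not given in the sources used here. Columns were assigned to samples by name.

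Genes were filtered with filterByExpr by group, scaled by TMM and fitted with edgeR 4.0.16 (limma 3.58.1, R 4.3.3): quasi-likelihood fit, 4 groups, all 8 libraries, 4 residual degrees of freedom, Benjamini-Hochberg adjustment per comparison over 14201 genes, threshold 0.05. The 8 comparisons were the 5 pairwise ones of the report, the interaction, and the averages over both backgrounds, in which estradiol is the mean of E2 minus DMSO and Dex_E2 minus Dex. Standard errors are the fold change divided by the root of the F statistic. CPM are counts scaled to the TMM-adjusted library size. The fit was tested on simulated data in which only estradiol raised genes, 50 at each fold and equally without and with dexamethasone. They were drawn above a minimum level in DMSO that BOP1 and PPAN do not reach. For estradiol averaged, edgeR called 3 of those raised 1.2 fold, 21 at 1.3 fold and 49 at 1.5 fold. Of its 133 calls there, 10 were of genes left unchanged. For E2 against DMSO it called 2, 8 and 40, so 0 calls do not show that small changes were absent. With 2 libraries a group, the spread between libraries limits precision for well-counted members, while PPAN (65 to 165 counts) and BOP1 (122 to 256) also carry sizeable counting error (common biological coefficient of variation 0.097). Libraries within each group varied beyond sampling noise (chi-square per degree of freedom 9.90 to 25.5).

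Alternatives were DESeq2 1.42.0, limma-voom, other scalings, no filter, only the groups compared, leaving out each library, a block on replicate number and, chosen after seeing the data, library totals without RNA45S5. The members and the gene lists were chosen with earlier results of these data known. Values in every library are printed for each called member, the 10 members with the smallest p for estradiol averaged over both backgrounds, the 4 for dexamethasone and for the interaction, and the highest and lowest member. From each list up to 3 members with the smallest p are named. POLR1A, FBL and NPM1 were singled out after their values were seen.

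Promoters are RefSeq's (GRCh38.p14), and exon lengths, snoRNA hosts and overlaps are from GENCODE, also of another build than the counts and so used without coordinates. The 9 motifs were chosen after seeing the data and searched on both strands. They were the E-box CACGTG, a pair of related hexamers (CATGTG as well as CACGCG), the ETS-type element CCGGAAG, the GC box GGGCGG, the TATA box TATAAA, the YY1-type element CCATNTT, and the hexamers AGGTCA of the estrogen response element and AGAACA of the glucocorticoid response element. None contains another, though neighbouring matches can share bases.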

Additional observations from a re-analysis of the deposited data

How the results depend on the processing

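The 6 called members and the member medians kept the direction of their change under every alternative run, while NCL, near 0 with estradiol averaged, fell below 0 with upper quartile scaling. Members called with estradiol alone numbered 0 with edgeR but 4 with DESeq2, 3 without the filter on low counts and 6 with a replicate block. For estradiol averaged over both backgrounds they numbered 6 with edgeR and 10 with DESeq2. The main fit did not pair samples by replicate number, and whether the numbers pair them is not known. Across genes, deviations of same-numbered libraries correlated at 0.35 for DMSO and Dex, 0.27 for DMSO and E2 and 0.07 for Dex and E2. Across the members they correlated at 0.47, 0.18 and -0.03, in the same order. No paired analysis was possible for comparisons with the combination, because both of its columns carry the same number. When each library was left out in turn, members called ranged from 0 to 1 for E2 against DMSO and for Dex_E2 against Dex, and from 1 to 8 for estradiol averaged. Member medians ranged from -0.158 to -0.008 (Dex against DMSO), 0.029 to 0.12 (Dex_E2 against DMSO), 0.078 to 0.212 (Dex_E2 against Dex), -0.185 to -0.039 (interaction) and -0.183 to -0.087 (dexamethasone averaged). Members whose libraries with and without estradiol did not overlap ranged from 13 to 23, the highest without DMSO replicate 1. Leaving out a library makes non-overlap easier for every gene, and the matching shares of all tested genes were not computed. Genes called among all tested also moved. Against DMSO, Dex gave 137 with edgeR, 253 without the filter, 63 with only the groups compared and 239 with the replicate block. E2 against DMSO gave 256 with edgeR, 339 with DESeq2, 442 without the filter and 441 with the block. Dex_E2 against E2 gave 39, and 75 with DESeq2, 132 without the filter and 151 with only the groups compared. Without the filter Dex_E2 against Dex gave 658 in place of 379, the interaction 32 in place of 3 (15 with DESeq2), and dexamethasone averaged 295 in place of 152. With 1 library left out at a time these counts ranged from 78 to 127 (Dex), 58 to 298 (E2) and 157 to 325 (Dex_E2, 311 in full) against DMSO, 10 to 68 for Dex_E2 against E2, 89 to 488 for Dex_E2 against Dex, 1 to 10 for the interaction, 422 to 904 for estradiol averaged (824 in full) and 82 to 183 for dexamethasone averaged. The cause of these shifts was not tested.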
